A study of Mus musculus with 4 samples.

Results

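The transcripts of the chemokine CXCL12 and of its receptors were followed in RNA-seq of ID4-EGFP+ spermatogonia sorted from mouse testes at postnatal day 8. The genes were taken by symbol, as *Cxcl12*, *Cxcr4* and *Ackr3*, which are 3 of the 54920 genes listed for each library. All 3 passed the expression filter, which left 23952 genes to be tested. Control mice (2 libraries) were Cnot3 flox/flox and carried Id4-eGfp but no Cre, and *Cnot3*-cKO mice (2 libraries) were Cnot3 flox/flox with Ddx4-creER and ID4-EGFP. All mice of both groups received 4-OHT from day 1 to day 3 after birth. Ddx4-creER drives a tamoxifen-inducible Cre in germ cells, so somatic cells of the same testes keep *Cnot3*. The genotype label of the controls reads wild-type although their *Cnot3* alleles were floxed. The RNA-seq was described with more biological replicates than the 2 libraries per group analysed here. The labels do not tie a library to an animal or give the number of animals in it, so p-values measure only the spread between these libraries.

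CXCL12, also called SDF-1, is a secreted chemokine that binds to heparan sulphate and guides migrating cells. CXCR4 is its Gi-coupled receptor. ACKR3, also called CXCR7, is an atypical receptor that takes up CXCL12 and recruits arrestins, without classical G protein signalling. In the testis, CXCL12 is known as a product of somatic cells such as Sertoli cells and CXCR4 as a receptor on undifferentiated spermatogonia, where the pair is known for germ cell migration, homing and stem cell maintenance. *Cnot3* encodes a subunit of the CCR4-NOT complex, which shortens the poly(A) tails of mRNAs and can be recruited to them by proteins that bind AU-rich elements in 3′ UTRs.

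*Cxcl12* (ENSMUSG00000061353.11) lies at chr6:117168535-117181367 on the forward strand of GRCm38, with 4 annotated transcripts. *Cxcr4* (ENSMUSG00000045382.6) lies at chr1:128588199-128592293 on the reverse strand and *Ackr3* (ENSMUSG00000044337.5) at chr1:90203980-90216751 on the forward strand, with 2 transcripts each. None of them overlaps another annotated gene. The 100 bases before each RefSeq start (GRCm38.p6) are printed to show how the core promoters differ, each 5′ to 3′ on the strand of its gene. They cover chr6:117168435-117168534 for *Cxcl12*, chr1:128592300-128592399 for *Cxcr4* and chr1:90203880-90203979 for *Ackr3*. Capitals mark TATAAA, searched on the strand of the gene, and the GC box GGGCGG, searched on both strands and read as CCGCCC on the other strand.
Cxcl12: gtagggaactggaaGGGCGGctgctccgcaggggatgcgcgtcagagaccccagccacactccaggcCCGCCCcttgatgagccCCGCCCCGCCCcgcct
Cxcr4: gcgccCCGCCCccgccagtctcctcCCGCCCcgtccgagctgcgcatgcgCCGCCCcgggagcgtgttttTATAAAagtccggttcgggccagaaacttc
Ackr3: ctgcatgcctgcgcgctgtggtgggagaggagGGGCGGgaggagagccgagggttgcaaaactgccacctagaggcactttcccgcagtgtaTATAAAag

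The *Cxcl12* window held 4 GC boxes, of which the last 2 share a base, and no TATAAA. The *Cxcr4* window held 3 GC boxes and a TATAAA whose first base lies 30 bases before the start, and the *Ackr3* window held 1 GC box and a TATAAA that begins 8 bases before the start. Among 32851 promoter windows of the same length, 3.80% held TATAAA and 24.7% held a GC box. GC content was 73%, 69% and 60% for *Cxcl12*, *Cxcr4* and *Ackr3*, against a median of 55%. The letters ACGTG, the core of the hypoxia response element, searched on both strands, were in none of the 3 windows and in 8.09% of all windows.

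Libraries held 40957899 and 43378493 counted reads for controls and 22192964 and 28019626 for *Cnot3*-cKO. *Cnot3* itself had 58.6 and 50.2 CPM (read counts scaled to the TMM-adjusted size of each library) in the control libraries and 19.2 and 19.9 CPM in the *Cnot3*-cKO libraries. A gene was called at a fold change above 2 and a Benjamini-Hochberg adjusted p under 0.01 in edgeR's quasi-likelihood test. By this rule 4.76% of the tested genes were called, 4.03% higher and 0.735% lower in *Cnot3*-cKO. The median log2 fold change of all tested genes was 0.01. The germ cell marker *Dazl*, an RNA-binding protein, had 2339 and 2634 CPM in controls and 2024 and 2263 CPM in *Cnot3*-cKO. *Zbtb16*, a transcriptional repressor of undifferentiated spermatogonia, had 436, 364, 243 and 212 CPM in the same order. Both markers were abundant in all 4 libraries. *Zbtb16* was the only 1 of 10 stem cell markers with both *Cnot3*-cKO libraries below both controls, while 7 had both above. Over all tested genes these shares were 28.6% below and 30.5% above.

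The ligand was lower and its signalling receptor was higher in the *Cnot3*-cKO libraries. *Cxcl12* fell 2.84-fold and *Cxcr4* rose 2.59-fold, and both were called, while *Ackr3* was not called. In all 3 genes the *Cnot3*-cKO libraries lay on one side of both control libraries. Of all tested genes, 59.1% were placed in this way, with *Cnot3*-cKO above in 30.5% and below in 28.6%.

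*Cxcl12*, the ligand, had 1238 and 1095 reads in the control libraries and 250 and 257 reads in the *Cnot3*-cKO libraries. These are 30.7 and 26.0 CPM in controls and 11.0 and 8.97 CPM in *Cnot3*-cKO. The lower control lay well above the higher *Cnot3*-cKO library, and the Poisson 95% intervals of these libraries, 24.5 to 27.6 CPM and 9.71 to 12.5 CPM, were far apart. Such intervals cover counting error only. Mean levels were 28.4 ± 3.33 CPM for controls and 10.0 ± 1.46 CPM for *Cnot3*-cKO (SD, n = 2 per group). The log2 fold change was -1.51 (standard error 0.17, 95% interval -1.87 to -1.14), with an edgeR adjusted p of 9.06e-05. By fold change *Cxcl12* was number 48 of the 176 genes called lower. In bulk RNA, fewer cells that make a transcript and less of it per cell cannot be told apart.

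*Cxcr4*, the Gi-coupled receptor, had 339 and 355 reads in controls and 479 and 646 reads in *Cnot3*-cKO, although the *Cnot3*-cKO libraries were the shallower ones. Its levels were 8.42 and 8.44 CPM in controls and 21.1 and 22.6 CPM in *Cnot3*-cKO. The 2 libraries of each group were close to each other and the groups were well separated. Mean levels were 8.43 ± 0.0148 CPM for controls and 21.8 ± 0.999 CPM for *Cnot3*-cKO (SD, n = 2 per group). The log2 fold change was 1.37 (standard error 0.16, 95% interval 1.02 to 1.73), with an edgeR adjusted p of 0.000132. By fold change *Cxcr4* was number 602 of the 965 genes called higher.

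*Ackr3*, the atypical receptor, was the least abundant of the 3 genes, with 100 and 172 reads in controls and 22 and 60 reads in *Cnot3*-cKO. Its levels were 2.48 and 4.09 CPM in controls and 0.971 and 2.09 CPM in *Cnot3*-cKO. The groups did not overlap, but the lower control and the higher *Cnot3*-cKO library had Poisson intervals that did, from 2.02 to 3.02 CPM and from 1.60 to 2.70 CPM. The log2 fold change was -1.08 (standard error 0.40, 95% interval -1.95 to -0.21), and the edgeR adjusted p was 0.0778. Within each group the libraries differed by about as much as the group means did. Single libraries moved its size. The log2 fold change was -1.41 without control replicate 1 and -1.76 without *Cnot3*-cKO replicate 2. It was -0.69 without control replicate 2 and -0.66 without *Cnot3*-cKO replicate 1. Over all 16 alternative settings the adjusted p of *Ackr3* ran from 0.00250 to 1.

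In the 4 edgeR fits that left out 1 library, the log2 fold change was -1.67 to -1.37 for *Cxcl12* and 1.32 to 1.41 for *Cxcr4*. The calls of both genes were lost in edgeR's glmTreat (adjusted p = 0.0893 for *Cxcl12* and 0.220 for *Cxcr4*). That test is against a 2-fold change instead of against no change. An exact permutation test on log2 CPM gave a two-sided p of 0.333 for each gene, which is the smallest that 2 libraries against 2 allow.

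**Figure D1:**
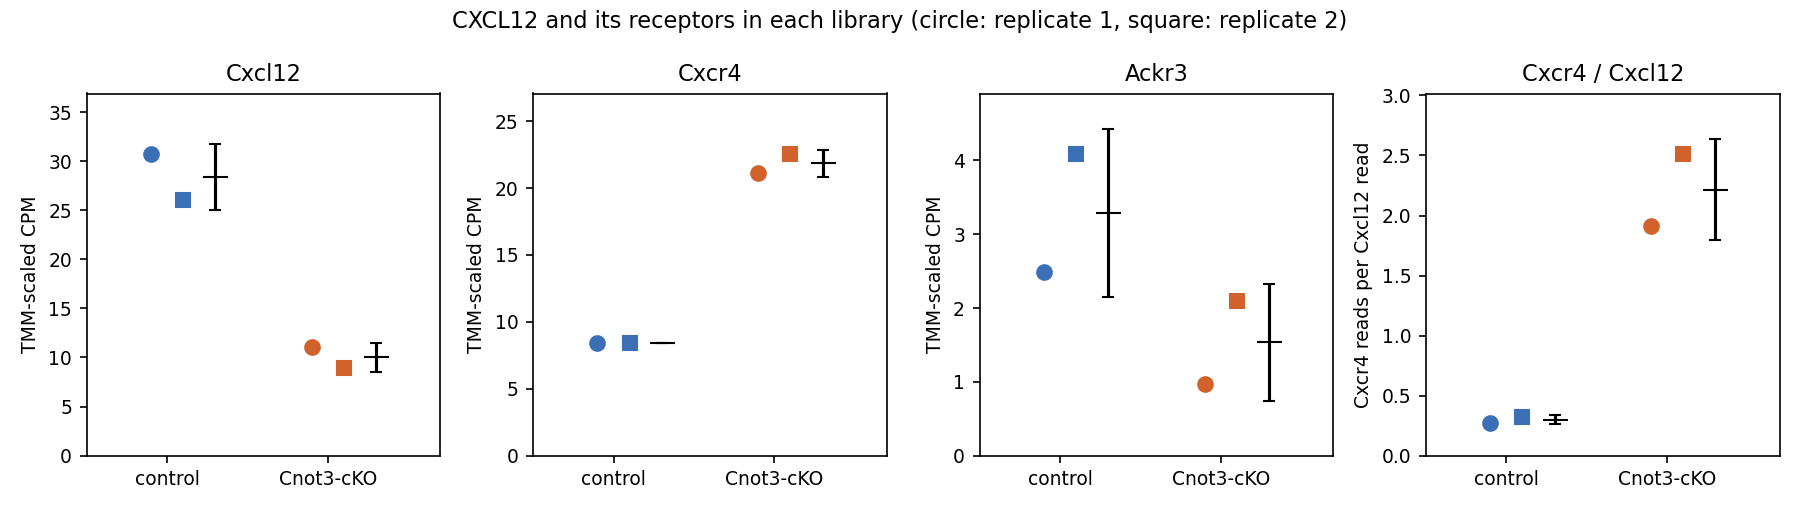
Normalised levels of *Cxcl12*, *Cxcr4* and *Ackr3* in CPM, and *Cxcr4* reads per *Cxcl12* read, in each library, on axes that start at 0 (circle: replicate 1, square: replicate 2, black mark: group mean ± SD). *Cxcl12* lies between 26.0 and 30.7 CPM in controls and between 8.97 and 11.0 CPM in Cnot3-cKO, and *Cxcr4* between 8.42 and 8.44 and between 21.1 and 22.6 CPM.

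**Figure D2:**
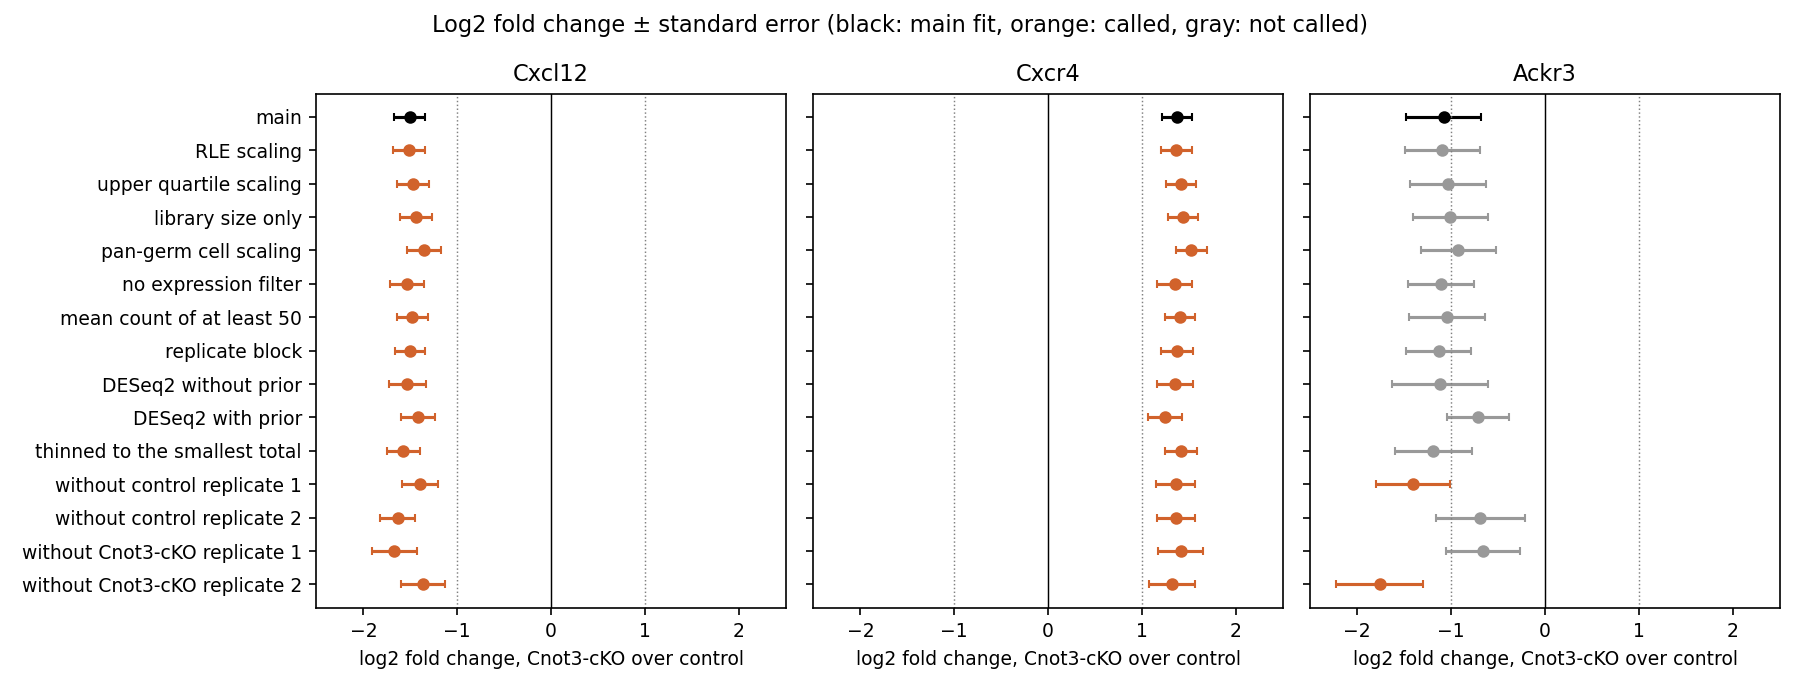
Log2 fold change of Cnot3-cKO over control for the same genes, ± standard error, in the main edgeR test (top row, black) and under other scalings, filters, tools and with each library left out (orange where called, gray where not). *Cxcl12* stays between -1.67 and -1.36 and *Cxcr4* between 1.25 and 1.53, while *Ackr3* moves between -1.76 and -0.66.

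The opposite changes of ligand and receptor altered their proportion within each library, a measure that needs no scaling between libraries. The libraries held 0.274 and 0.324 *Cxcr4* reads per *Cxcl12* read in controls and 1.92 and 2.51 in *Cnot3*-cKO. Ligand reads outnumbered receptor reads in both controls, and the reverse held in both *Cnot3*-cKO libraries. The mean ratio was 0.299 ± 0.0356 in controls and 2.21 ± 0.423 in *Cnot3*-cKO (SD, n = 2 per group), and the geometric means differed 7.37-fold with an exact two-sided permutation p of 0.333. With *Cxcr4* above both controls and *Cxcl12* below them, the separation of this ratio was fixed in advance and is no further result.

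The ratio of the receptors also moved, as their opposite placement above required, although *Ackr3* was not called. There were 3.39 and 2.06 *Cxcr4* reads per *Ackr3* read in controls and 21.8 and 10.8 in *Cnot3*-cKO. The geometric means differed 5.79-fold (exact permutation p = 0.333), and the lack of overlap was fixed by the levels of the single genes. The ratio of *Ackr3* to *Cxcl12* reads was 0.0808 and 0.157 in controls and 0.0880 and 0.233 in *Cnot3*-cKO, and here the groups overlapped (exact permutation p = 0.667). Of all reads on the 3 genes, *Cxcl12* took 73.8% and 67.5% in controls and 33.3% and 26.7% in *Cnot3*-cKO. *Cxcr4* took 20.2% and 21.9% in controls and 63.8% and 67.1% in *Cnot3*-cKO.

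Levels of different genes were compared per kilobase of merged exons, which measure 8176 bases for *Cxcl12*, 1808 for *Cxcr4* and 3348 for *Ackr3*. In controls *Cxcr4* stood at 4.66 ± 0.00816 CPM per kilobase, *Cxcl12* at 3.47 ± 0.407 and *Ackr3* at 0.981 ± 0.339 (SD, n = 2). In *Cnot3*-cKO the order of these levels was the same, with *Cxcr4* at 12.1 ± 0.553, *Cxcl12* at 1.22 ± 0.178 and *Ackr3* at 0.458 ± 0.237 CPM per kilobase (SD, n = 2). The order in *Cnot3*-cKO did not depend on the length used, but the order in controls did. The level of *Cxcr4* over that of *Cxcl12* was 1.35 in controls and 10.0 in *Cnot3*-cKO with merged exons. With the shortest coding transcripts it was 0.311 and 2.30, since the shortest *Cxcl12* transcript has 1878 bases, and with the longest it was 0.932 and 6.90. Coding transcripts without an annotated stop codon were left out. The shortest and the longest were therefore the same for *Cxcr4*, at 1805 bases, and for *Ackr3*, at 3065 bases.

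Percentiles of the level per kilobase of merged exons were taken among the tested genes with a length. *Cxcl12* moved from percentile 56.2 in controls to 35.9 in *Cnot3*-cKO, and percentiles with other lengths were not computed. *Cxcr4* moved from percentile 61.2 to 79.4 and *Ackr3* from 34.3 to 18.5.

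Other chemokine genes give the setting of these levels. Of 36 other chemokine ligands listed, 14 were tested, and 11 had no more than 3 reads in any library. Only *Pf4*, a platelet and macrophage chemokine, was called, with 4.25 and 2.71 CPM in controls and 11.9 and 9.01 CPM in *Cnot3*-cKO (log2 fold change 1.58, standard error 0.26, adjusted p = 0.00126). The 14 had a median log2 fold change of 0.82, and 3 of them were called higher without *Cnot3*-cKO replicate 1. *Ccl25* (log2 fold change -0.38) and *Cx3cl1* (-0.20), the ligands of CCR9 and CX3CR1, were not called. *Cxcl12* was the one ligand called lower among the 15 tested. Over all tested genes, the background of this list and the next, 0.735% were called lower and 4.03% higher. The level of *Cxcl12* per kilobase of merged exons ranked 2 of 15 in controls and 8 of 15 in *Cnot3*-cKO. By merged exons its control level differed from that of *Ccl25*, next in order at 3.43 ± 0.994 CPM per kilobase, by less than the SD. These ranks were not taken with other lengths. With its longest and shortest coding transcripts *Cxcl12* stood at 5.04 and 15.1 in controls and 1.78 and 5.33 in *Cnot3*-cKO. With merged exons *Pf4*, ranked 1, stood at 4.82 and 14.5 CPM per kilobase.

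Of 22 other chemokine receptors listed, 14 were tested, with a median log2 fold change of 0.69. The 2 called higher are known from myeloid cells, and 1 was called without *Cnot3*-cKO replicate 1 or by DESeq2. *Cx3cr1*, the fractalkine receptor, had 27.5 and 13.1 CPM in controls and 61.0 and 51.3 CPM in *Cnot3*-cKO (log2 fold change 1.47, standard error 0.25, adjusted p = 0.00140). *Ccr1*, a receptor for inflammatory CC chemokines, had 3.38 and 2.09 CPM in controls and 10.5 and 5.10 CPM in *Cnot3*-cKO (2.83-fold, adjusted p = 0.00870). *Ackr4*, a scavenger of CC chemokines, had a log2 fold change of 0.22 and was not called. Per kilobase, *Cxcr4* ranked 1 of the 16 tested receptors in controls, above *Cx3cr1* at 4.50 ± 2.25 CPM per kilobase by less than the SD, and 2 in *Cnot3*-cKO, after *Cx3cr1* at 12.5 ± 1.52. *Ackr3* ranked 3 in controls, next to *Ccr1* at 0.965, and 6 in *Cnot3*-cKO.

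**Figure D3:**
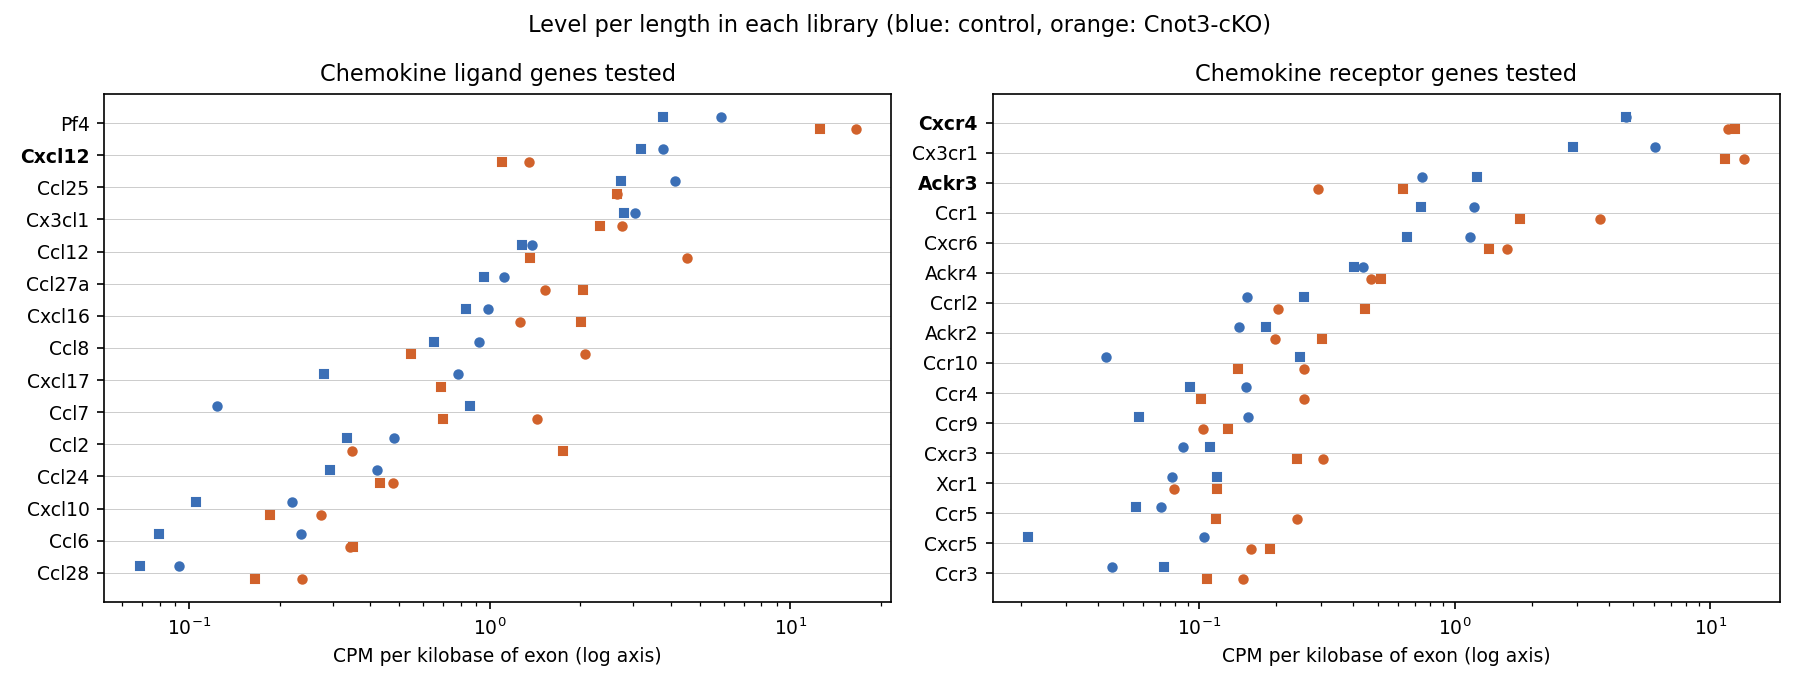
Level per kilobase of merged exons of every tested chemokine ligand and receptor in each library, in CPM per kilobase on a log axis, ordered by the control mean. *Cxcl12* ranks 2 of 15 ligands in controls and 8 in Cnot3-cKO, and *Cxcr4* ranks 1 and then 2 of 16 receptors; a library with 0 reads has no point.

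Of 8 tested genes whose proteins bind, present or degrade CXCL12 or share its receptors, none was called by edgeR or DESeq2. Of these, 6 had an unadjusted p under 0.05 (4 higher, 2 lower), and the median log2 fold change was 0.43. The number called was 1 without *Cnot3*-cKO replicate 2. The median was 0.09 without control replicate 1 and 0.21 without *Cnot3*-cKO replicate 1. *Sdc4*, a heparan sulphate proteoglycan, was the most abundant at 562 and 554 CPM in controls and 505 and 453 CPM in *Cnot3*-cKO. *Mmp9*, a gelatinase that can cleave CXCL12, had 8.49 and 8.03 CPM in controls and 15.0 and 14.5 CPM in *Cnot3*-cKO, a 1.78-fold difference under the fold limit (adjusted p = 0.00558). *Hmgb1*, whose protein forms a complex with CXCL12, had a log2 fold change of -0.43 (adjusted p = 0.00274). The largest log2 fold changes of the list were those of *Cd74* (1.23, adjusted p = 0.105), a receptor for MIF that pairs with CXCR4, and *Dpp4* (1.05, adjusted p = 0.120), a peptidase that truncates CXCL12. *Cd74* had 1.24 and 1.14 CPM in controls and 4.41 and 1.26 CPM in *Cnot3*-cKO, so 1 library held most of its difference. *Dpp4* had 0.646 and 1.12 CPM in controls and 1.59 and 2.06 CPM in *Cnot3*-cKO. These 5 genes were picked for mention after their values were seen. Low unadjusted p-values were common among all tested genes. In the edgeR test *Ackr3*, with an unadjusted p of 0.0192, ranked 5923 by p among the 23952 tested genes. At least 5923 genes therefore had an unadjusted p under 0.05. The full share was not determined, so counts at this limit, here and for later lists, cannot show whether a list exceeded the background.

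Of 12 tested genes for receptor desensitization, 1 was called higher and 0 lower by edgeR and by DESeq2. Over all tested genes edgeR called 4.03% higher and 0.735% lower, shares that also stand beside the lists that follow. In the list 4 genes had an unadjusted p under 0.05 (2 higher, 2 lower). The called gene was *Arrb1*, encoding β-arrestin 1, with 11.3 and 8.82 CPM in controls and 22.6 CPM in both *Cnot3*-cKO libraries (log2 fold change 1.17, standard error 0.17, adjusted p = 0.000584). No gene of the list was called in the absence of control replicate 2, and 2 genes were called higher in the absence of control replicate 1 or of *Cnot3*-cKO replicate 1.

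Of 25 tested effectors downstream of CXCR4, 2 were called higher and 1 lower, and the median log2 fold change was 0.04. The shares over all tested genes were 4.03% and 0.735%, and whether the list exceeded them was not tested. *Gnai1*, which encodes an inhibitory G protein α subunit, had 35.0 and 41.3 CPM in controls and 16.3 and 21.2 CPM in *Cnot3*-cKO (log2 fold change -1.02, standard error 0.16, adjusted p = 0.000781). Its fold change was just above the limit, and no effector was called lower without control replicate 2, without *Cnot3*-cKO replicate 1, or with scaling by library size or by pan-germ cell genes. *Vav1*, an exchange factor for Rac in blood cells, had 2.41 and 1.76 CPM in controls and 5.47 and 5.38 CPM in *Cnot3*-cKO. *Plcb2*, a phospholipase C known from blood cells, had 3.45 and 4.68 CPM in controls and 8.78 and 9.11 CPM in *Cnot3*-cKO. Both were called higher (log2 fold changes 1.38 and 1.14, adjusted p 0.00431 and 0.00460). The number called higher was 4 without control replicate 1 and 5 without *Cnot3*-cKO replicate 2.

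Of 12 tested ligands of other spermatogonial niche pathways, 6 were called higher and 0 lower, and the median log2 fold change was 1.15. DESeq2 also called 0 lower, and 0 had an unadjusted p under 0.05 with a lower level. *Kitl*, the ligand of KIT, had 36.8 and 31.6 CPM in controls and 146 and 160 CPM in *Cnot3*-cKO (log2 fold change 2.16). *Gdnf*, the Sertoli cell factor for stem cell self-renewal, had 1.96 and 2.04 CPM in controls and 7.99 and 6.35 CPM in *Cnot3*-cKO (log2 fold change 1.84). The others were *Wnt6* (2.22), *Fgf9* (1.38), *Inhba* (1.24) and *Igf1* (1.06), which encode a WNT ligand, a fibroblast growth factor, an activin subunit and insulin-like growth factor 1. Sertoli cell markers moved with these ligands, with 9 of 10 called higher and sums of 207 and 199 CPM in controls and 695 and 707 CPM in *Cnot3*-cKO. Their part in the ligand result was not tested.

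Of 15 tested receptors of these pathways, 1 was called higher and 3 lower, with a median of -0.12. *Fgfr1*, a receptor for fibroblast growth factors, fell from 50.8 and 50.7 CPM in controls to 18.0 and 17.0 CPM in *Cnot3*-cKO (log2 fold change -1.54). *Acvr2b*, an activin receptor, and *Kit*, the receptor of differentiating spermatogonia, had log2 fold changes of -1.12 and -1.05. *Csf1r*, the macrophage colony-stimulating factor receptor, was the one called higher (1.21), and it lost its call without control replicate 2. With pan-germ cell scaling 2 receptors were called higher and 1 lower. *Csf1r* is also among the macrophage markers and *Kit* among the markers of differentiating spermatogonia.

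**Figure D4:**
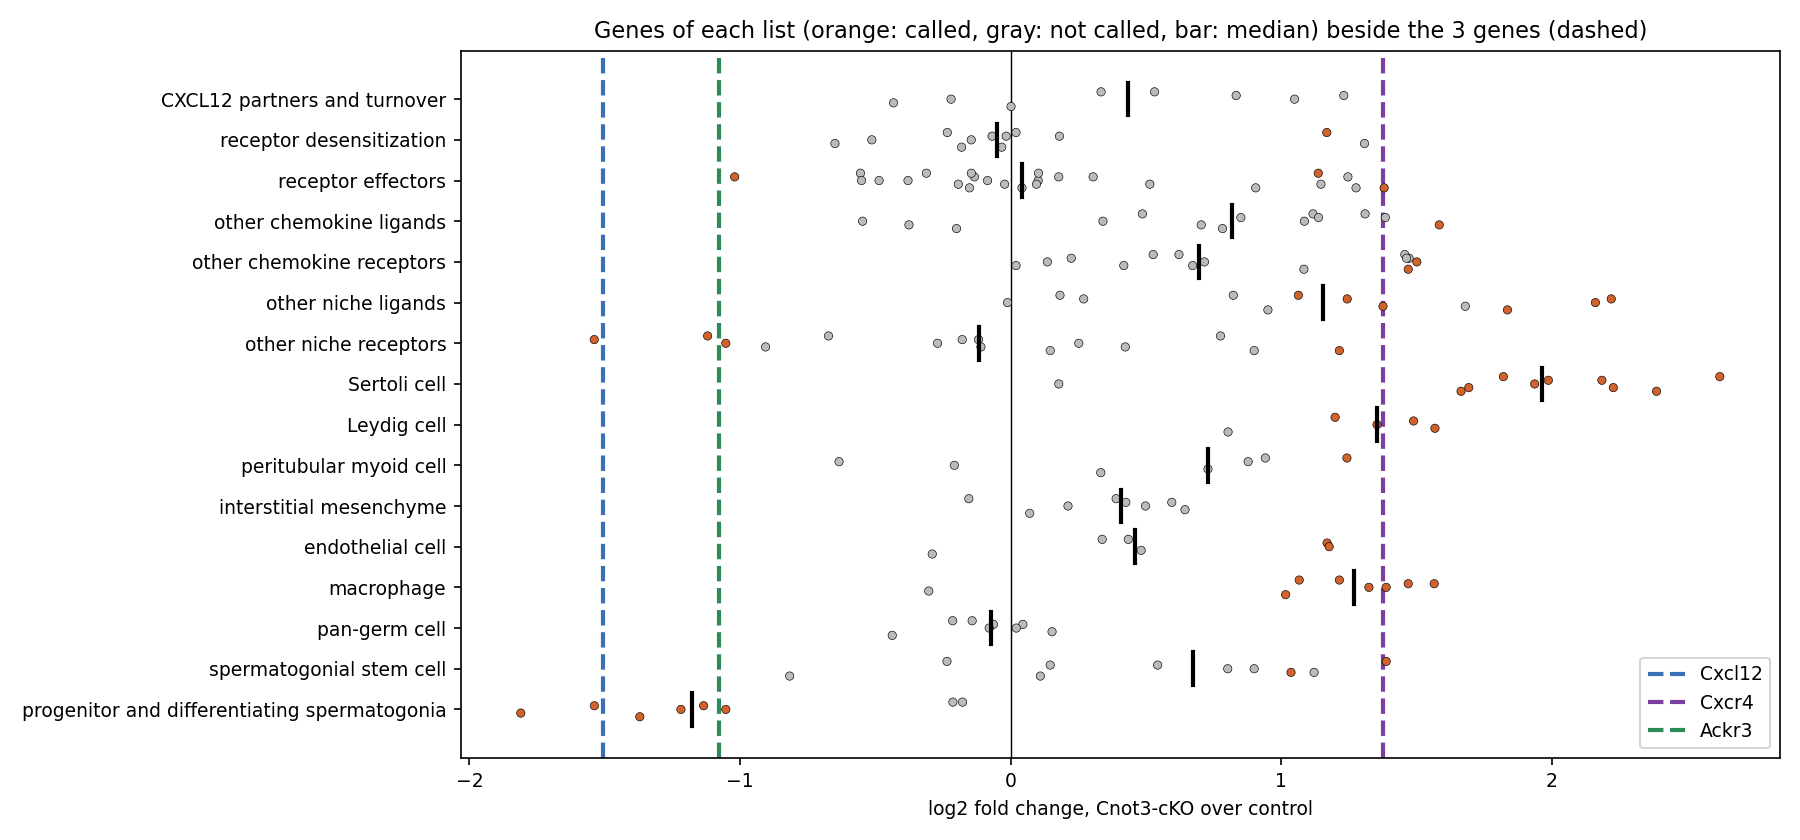
Log2 fold change of Cnot3-cKO over control for every tested gene of each pathway and cell type list, 1 point per gene, with called genes in orange, other genes in gray and the list median as a bar. The dashed lines mark *Cxcl12* at -1.51, *Cxcr4* at 1.37 and *Ackr3* at -1.08, and the median is 1.15 for other niche ligands, -0.12 for their receptors and 1.96 for Sertoli cell markers.

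Summed markers of somatic cells were higher in *Cnot3*-cKO for each cell type listed, though not every marker was. The values are given beside the results on *Cxcl12* and *Cxcr4* because both genes can be expressed outside the germ line. Of the 10 Sertoli cell markers, whose sums are given above, *Clu*, the secreted chaperone clusterin, was the most abundant, at 152 and 145 CPM and 479 CPM in both *Cnot3*-cKO libraries. Of 8 interstitial mesenchyme markers, 0 were called by edgeR or DESeq2 and 4 had an unadjusted p under 0.05, all higher, and their sums were 522 and 494 CPM in controls and 606 and 732 CPM in *Cnot3*-cKO. *Col3a1*, a fibrillar collagen, led that list at 212, 204, 265 and 322 CPM.

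Leydig cell markers summed to 368 and 322 CPM in controls and 831 and 896 CPM in *Cnot3*-cKO, with 4 of 5 tested called higher. *Hsd3b1*, a steroidogenic enzyme, was the most abundant at 287 and 248 and then 656 and 712 CPM, while *Insl3*, a Leydig cell hormone, had 0 reads in every library. Of 6 tested endothelial markers, 2 were called higher (1 without *Cnot3*-cKO replicate 1), with sums of 25.8 and 23.2 CPM and 37.7 and 43.6 CPM. The leading endothelial gene was *Tek*, an angiopoietin receptor, with a log2 fold change of 0.48 that was not called. Of 7 peritubular myoid markers, only *Myl9*, a myosin light chain, was called higher (1.24), and 2 were called without *Cnot3*-cKO replicate 1. Their sums were at most 24.6 CPM in controls and were 35.9 and 43.5 CPM in *Cnot3*-cKO.

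Macrophages can also express *Cxcr4*. The 8 markers summed to 220 and 133 CPM in controls and 486 and 399 CPM in *Cnot3*-cKO, and 7 were called higher. *Cd14* had a log2 fold change of -0.30 and was not called. *Mrc1*, the mannose receptor, led the list at 96.8 and 55.2 CPM in controls and 218 and 180 CPM in *Cnot3*-cKO. The median log2 fold change of the list was 1.27 in the main fit and 0.99 to 1.65 with 1 library left out. For *Cxcr4* these values were 1.37 and 1.32 to 1.41. The part of macrophage RNA in the results on *Cxcr4*, *Cx3cr1*, *Ccr1*, *Pf4*, *Vav1* and *Plcb2* was not tested.

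The balance of germ cell types also moved with the groups. The 8 markers of progenitor and differentiating spermatogonia summed to 563 and 671 CPM in controls and 322 and 362 CPM in *Cnot3*-cKO, and 6 were called lower. Among 10 stem cell markers 2 were called higher and 0 lower by edgeR and by DESeq2, with 6 higher and 1 lower at an unadjusted p under 0.05, and the sums were 892 and 767 CPM in controls and 826 and 835 CPM in *Cnot3*-cKO. *Id4*, the gene whose reporter defined the sort, was one of the 2 (log2 fold change 1.04), and neither was called without *Cnot3*-cKO replicate 2. Of 8 pan-germ cell markers, 0 were called by edgeR or DESeq2 and 2 had an unadjusted p under 0.05, both lower. Their sums were 5284 and 5643 CPM in controls and 4822 and 5006 CPM in *Cnot3*-cKO. The part of these shifts in the *Cxcl12* and *Cxcr4* results was not tested.

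The 3′ UTRs were searched for letters that proteins recruiting CCR4-NOT are known to bind, namely the AU-rich pentamer ATTTA and heptamer TATTTAT and the Pumilio motif TGTANATA, on the strand of the gene and in the longest annotated UTR. The *Cxcl12* UTR has 5188 bases and held 4 pentamers, 1 of them inside a heptamer. The heptamer is shown in capitals with 9 bases on either side, at chr6:117176369-117176393 on the forward strand of GRCm38.
Cxcl12 site: cagctgctgTATTTATgtgcttcat

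The *Cxcr4* UTR has 644 bases and held 1 pentamer, and the *Ackr3* UTR has 1842 bases and held 3, with no heptamer in either. The Pumilio motif was in none of the 3 UTRs. Among 15655 tested genes with an annotated 3′ UTR, 68.4% held the pentamer, 29.1% the heptamer and 25.3% the Pumilio motif, at a median length of 1121 bases. The heptamer was in 28.0% of the UTRs of genes called higher and in 38.7% of those called lower, whose median lengths were 1205 and 1516 bases.

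Genes with the most similar pattern were found by the root mean square difference of centred log2 CPM over the 4 libraries, among 15518 genes whose log2 CPM averaged 1 or more. For *Cxcl12* they were *Oasl2* (0.0611), an interferon-induced gene, *Gm13245* (0.0655) and *Sall1* (0.0885), a zinc finger transcription factor. *Oasl2* had 43.1 and 35.3 CPM in controls and 14.8 and 11.2 CPM in *Cnot3*-cKO, so that replicate 1 was the higher library in each group, as for *Cxcl12*. For *Cxcr4* they were *Enpp1* (0.0147), a pyrophosphate-generating enzyme, *Zfp354a* (0.0254), a zinc finger gene, and *Tshz1* (0.0294), a homeobox gene. *Tshz1* had 9.58 CPM in both controls and 25.2 and 25.9 CPM in *Cnot3*-cKO. For *Ackr3* the nearest genes were farther away, namely *Prokr1* (0.102), a prokineticin receptor, *Gm5786* (0.112) and *Ttc6* (0.119). None of these 3 was called, and in each of them replicate 2 was the higher library of its group, as in *Ackr3*. With 4 libraries such likeness describes these libraries only.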

How the data were processed

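RNA of sorted ID4-EGFP+ cells was sequenced from 2 control and 2 *Cnot3*-cKO preparations with a stranded total RNA kit. The deposited values were raw read counts per gene symbol, which the authors made by aligning reads to mm10 with STAR and counting them with featureCounts. Whether reads that match several genes or the other strand were counted is not given in the sources used here. Totals ranged from 22192964 to 43378493 reads, and 3 reads was taken as the floor of detection.

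*Cnot3*-cKO was compared with control in edgeR 4.0.16 (R 4.3.3) with TMM scaling, the default expression filter, no covariate and the quasi-likelihood test over all 23952 tested genes. Calls required more than a 2-fold change and a p, adjusted by Benjamini-Hochberg, of less than 0.01, the limits of the study, which used DESeq2. DESeq2 1.42.0 was an alternative. Standard errors were taken as the log2 fold change divided by the square root of F. Log2 CPM for likeness and for the permutation test of single genes used a prior count of 2. Alternatives were other scalings, filters, tools and thresholds, a replicate block, thinning to the smallest total and leaving out each library in turn. The use of other transcript lengths was chosen after seeing the data.

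The 3 genes and all gene lists were chosen with earlier results of these data known. Named genes were the 3 themselves, called members of the pathway lists, the most abundant tested chemokine genes, the most abundant marker of each cell type list, and the 3 nearest genes in pattern for each member. *Sdc4*, *Mmp9*, *Hmgb1*, *Cd74*, *Dpp4*, *Insl3*, *Id4*, *Col1a1*, *Tagln*, *Cnn1* and *Cd14* were named outside this rule after their values were seen. Coordinates and lengths came from GENCODE M21 on GRCm38 and covered 97.5% of the tested genes. The authors counted on a later GENCODE release, so the lengths behind levels per kilobase, ranks and percentiles are not from the annotation of the counts. Promoters came from RefSeq on GRCm38.p6. The script was tested on simulated counts. Figures used Python 3.11.15 and matplotlib 3.10.9.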

Additional observations from a re-analysis of the deposited data

How the results depend on the processing

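*Cxcl12* and *Cxcr4* kept their direction in all 16 alternatives and their call in 15, the exception being the test against a fold change of 2 (glmTreat), where the adjusted p was 0.0893 for *Cxcl12* (log2 fold change -1.51) and 0.220 for *Cxcr4* (1.37). *Cnot3* (-1.48, adjusted p = 0.0346) also lost its call there, with 87 genes called higher and 5 lower, since this test asks for more than the main one. That test and the looser limit of adjusted p under 0.05 keep the log2 fold changes of the main fit. The direction in both, and the call at the looser limit, were thus fixed in advance. Leaving out 1 library gave -1.67 to -1.37 for *Cxcl12*, 1.32 to 1.41 for *Cxcr4*, -1.59 to -1.37 for *Cnot3* and -1.76 to -0.66 for *Ackr3*, which was called in 2 of these fits. Adjusted p ran from 1.05e-15 to 0.0893 for *Cxcl12* and from 1.29e-10 to 0.220 for *Cxcr4* over the alternatives. These fits, in which the lone library of a group is assumed to vary like the other group, called 943 to 1225 genes higher and 217 to 271 lower. An adjusted p under 0.05 gave 1452 higher and 284 lower, no expression filter gave 285 lower and scaling to pan-germ cell genes gave 86 lower, where the median of all genes moved to 0.16.

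The labels give same-numbered libraries only a number in common. The deviations of the replicate 1 libraries from their group means correlated at 0.0822 over 15519 genes. With 2 libraries per group, this single value cannot show whether same-numbered libraries were handled together. With the replicate block *Ackr3* had a log2 fold change of -1.13 (adjusted p = 0.0173), and no call of *Cxcl12*, *Cxcr4* or *Ackr3* changed.

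List medians with 1 library left out ranged from 0.094 to 0.60 for CXCL12 partners, -0.17 to -0.034 for desensitization, -0.0084 to 0.077 for effectors, 0.42 to 0.96 for chemokine ligands, 0.84 to 0.95 for chemokine receptors, 0.86 to 1.47 for niche ligands and -0.16 to -0.12 for niche receptors. By library size alone, desensitization, effectors and niche receptors had medians of 0.015, 0.11 and -0.053, and with pan-germ cell scaling 0.11, 0.19 and 0.033, so the sign of the first and the last depends on scaling. The median of all tested genes also moved, from 0.01 in the main fit to 0.07 and 0.16 with these scalings. List medians relative to it were not tested. *Ackr3* had the fewest reads of the 3 genes, 22 in *Cnot3*-cKO replicate 1, and thinning all libraries to the smallest total gave a log2 fold change of -1.19 (adjusted p = 0.0527).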
